A study of Homo sapiens with 4 samples.

Results

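MDA-MB-468, a human breast cancer cell line that the labels class as triple negative, was given either the vehicle DMSO (n = 2 libraries) or 5 µM MS1943 for 3 days (n = 2). The series title names MS1943 as a degrader of EZH2, the enzyme of Polycomb repressive complex 2 that methylates lysine 27 of histone H3. All cells were at passage 12, the labels give no time for DMSO, and poly(A)-selected RNA was sequenced without strand information. The transcripts described here are those that GENCODE 29 types as retained intron and whose abundance averaged at least 0.5 TPM (an abundance corrected for transcript length and scaled to the same total in each library) over the 4 libraries. They were thus selected on annotation type and on TPM in both groups, which also enters the shares compared below. There were 9418 such transcripts, called members below, among 26808 retained-intron transcripts and 193348 matched transcripts of all kinds. They lay in 4514 genes, 4409 of them protein coding; 2258 genes held 1 member, 1066 held 2 and 1190 held 3 or more, up to 19. The question asked is whether a member's share of its gene, its TPM as a percentage of the summed TPM of all transcripts of that gene, differed between MS1943 and DMSO.

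An intron is retained when the spliceosome leaves it in an RNA that is otherwise spliced and polyadenylated. Many such RNAs stay in the nucleus until they are spliced or degraded, and those that reach the cytoplasm often carry an early stop codon, so retention usually lowers the amount of protein a gene gives. Genes for SR proteins, which recognise exons, for the CLK kinases that phosphorylate SR proteins, for hnRNP proteins, and for OGT, which attaches the sugar O-GlcNAc to proteins, are well-known hosts of retained introns that respond to the state of the cell.

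The annotation type was checked against the gene models, because the name does not say that an intron is kept whole. Only 3043 members (32.3%) contained at least 1 complete intron of a protein-coding transcript of their gene. Another 2718 had their 3′ end inside such an intron, 2544 had their 5′ end inside one and 490 had both ends inside introns, each by more than 10 bases. A further 429 fitted none of these descriptions, and 194 had no protein-coding transcript in their gene to compare with. The members are therefore called by their annotation type here, and a whole intron is stated where there is one. In the median member, 30.1% of the bases were found in no transcript of another type. Such bases are called a member's own below, although other retained-intron transcripts of its gene may share them. By this measure 201 members had no base of their own. Reads are divided among overlapping transcripts by a statistical model, so the share of a member with few bases of its own rests on that division, whose error the files do not hold.

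**Figure D1:**
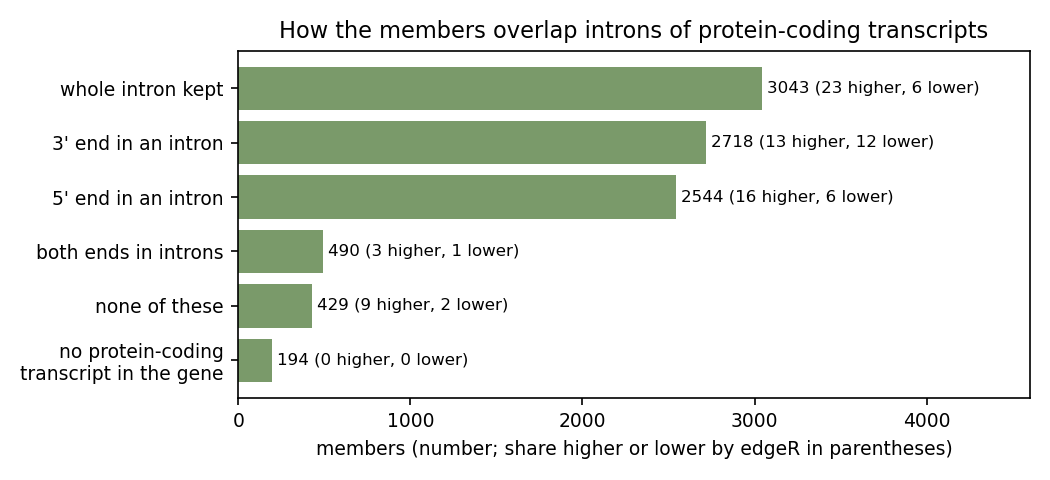
Members by how they overlap introns of the protein-coding transcripts of their gene. Each bar is a number of members (x axis), with the numbers whose share was called higher or lower with MS1943 in parentheses; whole introns were kept by 3043 of 9418 members.

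The 3043 whole-intron members kept 4389 introns in all, with a median length of 202 bases. Of these introns, 97.4% began with GT and 99.2% ended with AG, the usual boundary bases. 1046 introns were under 100 bases long and 336 were over 1000. The full donor sequences GTAAGT and GTGAGT, which pair well with U1 snRNA, opened 21.8% of the 4389 introns, read on the strand of the gene only. They opened 7 of the 30 introns kept by members whose share was called higher with MS1943 and 2 of the 6 kept by members called lower.

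Sequences are shown for 6 members described below: 3 of the whole-intron members with the largest called differences, the hnRNP member PTBP1-216, and the matching introns of the paralogous kinases CLK1 and CLK4, whose shares were not called. They were read 5′ to 3′ from the GENCODE 29 transcripts (hg38). In the windows, capitals mark the 21 intron bases next to the splice site and lower case the 9 exon bases beside them. In whole introns, capitals mark the first 6 and last 3 bases, where the spliceosome reads the boundaries.

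KIAA0930-212 keeps intron 1 of 9 of KIAA0930-201, a 157-base intron at chr22:45212108-45212264 on the minus strand, whose donor and acceptor windows are:
KIAA0930 intron 1 donor: gctccatggGTGGGGGTCGGGAGTGGTGAG
KIAA0930 intron 1 acceptor: CTGTCTGGCCTCCCTCTGCAGggtgcttca
OGT-210 keeps intron 4 of 21 of OGT-201, 3271 bases long at chrX:71544636-71547906 on the plus strand:
OGT intron 4 donor: gaagccaagGTAGGTGTTTGATAGAACACA
OGT intron 4 acceptor: CTTTCATTAACCCCTCCTAAGgcatgttat
PPP2R3B-204 keeps intron 11 of 12 of PPP2R3B-202, which has only 67 bases, 74.6% of them G or C, at chrX:338711-338777 on the minus strand:
PPP2R3B intron 11: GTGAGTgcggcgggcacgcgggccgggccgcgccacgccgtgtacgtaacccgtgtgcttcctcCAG
PTBP1-216 keeps intron 4 of 14 of PTBP1-203, 83 bases long at chr19:804209-804291 on the plus strand:
PTBP1 intron 4: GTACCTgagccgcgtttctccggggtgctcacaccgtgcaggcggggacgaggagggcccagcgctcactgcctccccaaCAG
CLK1-210 keeps introns 3 and 4 of CLK1-201, and CLK4-203 keeps, among others, introns 3 and 4 of CLK4-201. Intron 4 lies at chr2:200859747-200860124 in CLK1 (378 bases) and at chr5:178616949-178617343 in CLK4 (395 bases), both on the minus strand:
CLK1 intron 4 donor: gtgcaagatGTATAGAATATTTTTCAACAC
CLK4 intron 4 donor: gagcaagatGTATAGAATATTTTTCAACAC
CLK1 intron 4 acceptor: AGATTTATTTCTCTCTTTTAGatgaaattg
CLK4 intron 4 acceptor: CTTTTTCCCTCCTCACTCTAGatgaaatcg

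The donor side of intron 4 was identical in both kinases over all 21 intron bases, and 8 of the 9 exon bases matched. On the acceptor side 9 of 21 intron bases and 8 of 9 exon bases matched. The donor begins with GTATAG, unlike the GTAAGT form. In PTBP1 the intron begins with GTACCT and in OGT with GTAGGT.

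Retained-intron transcripts as a whole made up nearly the same part of each library except DMSO replicate 1. They held 4.37% and 4.77% of all TPM with DMSO and 4.82% and 4.81% with MS1943. The difference of 0.25 percentage points is within the spread of the DMSO pair (SD 0.28, n = 2), and the exact two-sided permutation test gave p = 0.333, the smallest that 2 libraries against 2 allow. Both MS1943 values lay above both DMSO values, but most of the difference came from DMSO replicate 1: without it, the difference was 0.05 points. The median share of a member in its gene behaved likewise, at 2.54% and 2.92% with DMSO and 3.00% and 3.00% with MS1943, and the difference of 0.27 points became 0.08 without DMSO replicate 1. Mitochondrially encoded transcripts took 3.65% and 4.001% of TPM with DMSO and 7.33% and 6.63% with MS1943. With them left out, retained-intron transcripts held 4.54% and 4.97% with DMSO and 5.21% and 5.15% with MS1943.

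**Figure D2:**
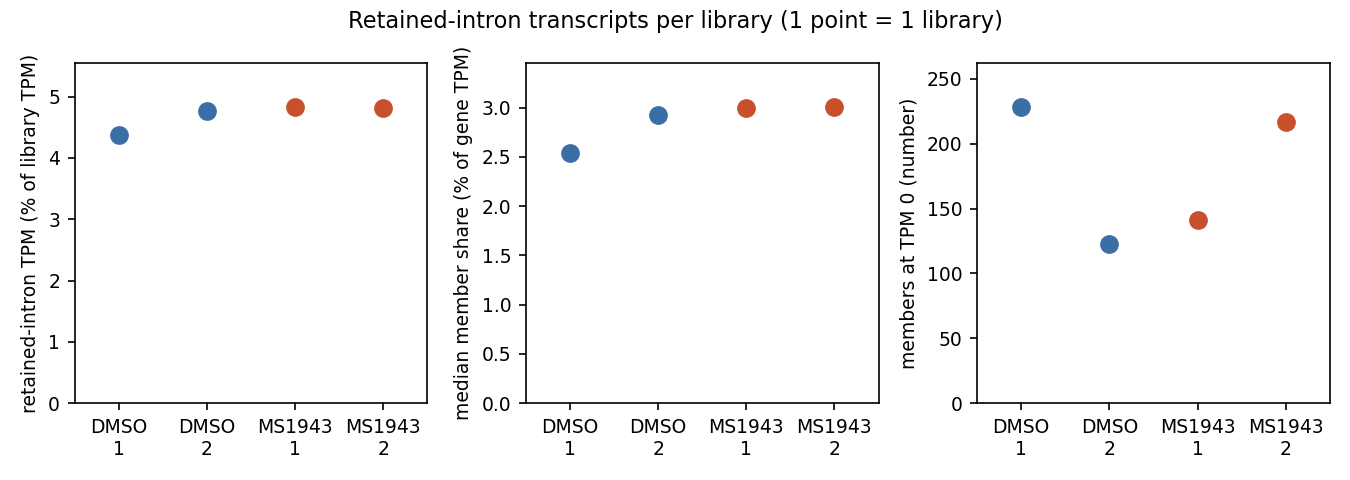
Retained-intron TPM as a percentage of library TPM (left), median share of a member in the TPM of its gene (middle) and members at TPM 0 (right), with 1 point per library. DMSO replicate 1 is lowest on the left (4.37%) and in the middle (2.54%) and has the most members at 0 (228).

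The libraries held 47564377 to 71378893 estimated reads, with MS1943 replicate 2 the shallowest, and members at TPM 0 numbered 123 to 228 per library. DMSO replicate 1 had the lowest share of the 4 libraries for 3589 members, against 1722 to 2100 for each of the others. The labels speak of dishes seeded in duplicate without stating that these were separate cultures. All p-values therefore rest on the variation among these particular libraries, which may be technical. Genes of a basal epithelial list were high, with 2607 and 2725 summed TPM with DMSO and 7437 and 6777 with MS1943, and 7 of its 10 genes rose, the keratin gene KRT5 among them, while ITGB4 fell by 0.91 and CDH1 by 0.24 on the log2 scale and EPCAM was not called. Markers of leukocytes summed to 128 to 190.4 TPM, mostly CD14, with PTPRC and CD3E among those too low to be tested. CD68, a lysosomal protein of macrophages, rose from 1.08 and 0.826 to 32.002 and 29.7 CPM (counts scaled to library size by TMM), while CD14 fell by 0.84 and ITGAM by 1.94 on the log2 scale. The part of these markers in the results below was not tested. Fibroblast markers summed to 10.999 to 18.5 TPM and endothelial markers to 0.73 to 2.31 TPM.

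For single members, few shares were called different. edgeR's quasi-likelihood test of each transcript against the rest of its gene, with Benjamini-Hochberg adjustment over 68355 transcripts, could be applied to 8613 of the 9418 members, and 805 members were not tested. The share was higher with MS1943 for 64 members (0.743%) and lower for 27 (0.313%). Over all 68355 tested transcripts, 0.910% were called higher and 0.797% lower. The part of the members called lay below this background in both directions, narrowly for rises. The 2 sets were not matched for abundance, so this is not read as a trait of retained-intron transcripts. At an unadjusted p below 0.05 there were 449 of the 8613 tested members. A threshold of 0.05 passes about that part of tests where nothing differs, so nothing is read from this count. On simulated data with the measured spread, the share test found 4 of 67 retained-intron transcripts at a true 2-fold difference. These were drawn above a minimum mean CPM, so the rate need not hold for members of low count. Where no transcript differed, the share test called 7 of 8196 members. A share that was not called may therefore still differ, and some called shares may not.

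The group means of the share lay within 1 point of each other for 4899 tested members (56.9%) and at least 5 points apart for 713 (8.28%), most of which were not called. Both MS1943 shares lay above both DMSO shares for 2912 members (30.9%) and below for 1582 (16.8%), where transcripts of all types with at least 0.5 TPM had 25.1% above and 22.9% below. Against DMSO replicate 2 alone the counts were 3752 above (39.8%) and 3027 below (32.1%), where all transcripts had 36.6% and 35.3%. Against DMSO replicate 1 alone they were 4651 above (49.4%) and 2388 below (25.4%), where all transcripts had 38.9% and 35.2%.

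**Figure D3:**
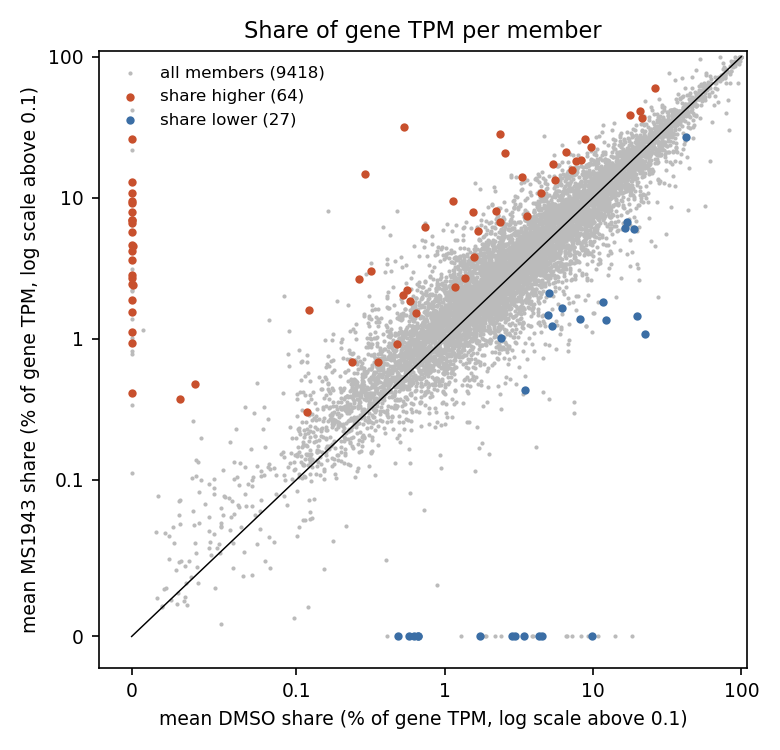
Mean share of gene TPM with DMSO (x axis) and with MS1943 (y axis) for all 9418 members, on axes that are logarithmic above 0.1% and linear below. The 64 members called higher and 27 called lower are coloured, and those along the left and bottom edges had a mean share of about 0 in 1 group.

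The TPM rule bears on these counts: 7872 members reached 0.5 TPM in both groups, 849 only with MS1943 and 697 only with DMSO, and a member of the last 2 kinds passed through the group where it was higher. Among the 7872 members, 35 shares were higher and 12 lower. The nearest members inside the threshold were TRMT2A-208 and PYCARD-204 (0.5001 and 0.5002 TPM), and the nearest outside were STAP2-202 and USP7-213 (0.4996 and 0.4999 TPM).

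Of the 64 rises, 32 were of at least 5 percentage points, and of the 27 falls, 10 (over all tested transcripts, 0.454% were called with such a rise and 0.360% with such a fall). The median called rise was 5.05 points and the median called fall -4.02 points. The 64 members lay in 59 genes and the 27 in 26. Members with under 10% of bases of their own made up 31.25% of the 64 and 44.4% of the 27. Among all tested members they made up 15.2%. How far the calls depend on the division of reads between overlapping transcripts was not tested. These calls leaned on all 4 libraries. Without any 1 library in turn, 18 to 29 of the 64 rises and 3 to 7 of the 27 falls remained called, and limma on the log2 ratio of a member to the rest of its gene (pseudocount 0.1) called 0 of the 68355 transcripts, with a smallest adjusted p of 0.0960 and 9873 transcripts at an unadjusted p below 0.05.

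The largest rise that held without each library in turn was in KIAA0930. The member KIAA0930-212 (chr22:45196038-45212457) held 0% and 1.07% of the gene with DMSO and 32.9% and 30.6% with MS1943. A count of 3 reads would have been 0.1004% in DMSO replicate 1. edgeR's quasi-likelihood test gave a Benjamini-Hochberg adjusted p of 2.4e-04, and the adjusted p lay between 0.0042 and 0.0111 without each library. Over the same libraries the protein-coding transcript KIAA0930-203 went the other way, with 79.9% and 72.95% of the gene with DMSO and 0.250% and 2.78% with MS1943, and its share was also called lower. KIAA0930-212 has no base that is absent from all transcripts of other types. How far its rise and the fall of KIAA0930-203 depend on the division of reads between overlapping transcripts was not tested.

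OGT, the O-GlcNAc transferase, had a called member with a long whole intron. OGT-210 (chrX:71533104-71574655), which keeps the 3271-base intron 4 whose splice sites are shown above, held 21.8% and 21.1% of the gene with DMSO and 37.7% and 35.3% with MS1943. Of its bases, 44.2% were in no transcript of another type. The 2 groups were well apart, by 15.1 points with far smaller gaps between replicates, and the share was called higher (edgeR adjusted p = 0.0426). The call was lost without any 1 of the 4 libraries, with adjusted p from 0.369 to 0.562. In abundance the member went from 8.93 and 10.1 TPM with DMSO to 17.6 and 16.6 TPM with MS1943, a log2 fold change of 0.91 ± 0.07 (edgeR adjusted p = 0.008), while the gene as a whole moved by 0.17 ± 0.06. The coding transcript OGT-202 held 61.7% and 53.8% of the gene with DMSO and 41.8% and 39.2% with MS1943, a difference that was not called.

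PSD4, which encodes an exchange factor for the small GTPase ARF6, also had a whole-intron member. PSD4-207 (chr2:113198558-113202912) keeps the 198-base intron 15 of 16 and held 8.66% and 8.91% of the gene with DMSO and 24.7% and 27.1% with MS1943 (edgeR adjusted p = 0.0438). The gene's own level fell slightly, by 0.15 on the log2 scale. The call held without MS1943 replicate 1 (adjusted p = 0.0123) and was lost without each of the other libraries (0.131 to 0.290) and without the filter on low counts (0.0504).

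Other large rises were in members that end inside an intron. EEPD1-204, of a gene encoding an endonuclease-family protein, has both ends in introns and held 35.1% and 17.3% of the gene with DMSO and 61.6% and 58.3% with MS1943. The DMSO libraries were far apart. ARHGAP45-205, of a gene for a GTPase-activating protein, held 18.5% and 22.96% of the gene with DMSO and 41.1% and 41.3% with MS1943. CAMTA2-206, of a calmodulin-binding transcription activator, held 18.2% and 17.2% of the gene with DMSO and 43.1% and 34.3% with MS1943, and a second CAMTA2 member, CAMTA2-210, was called higher too. All retained-intron transcripts of CAMTA2 together went from 33.6% and 29.97% to 65.4% and 61.8% of the gene. In CUX1, a homeobox transcription factor gene, CUX1-209 held 3.71% and 1.40% of the gene with DMSO and 20.5% and 20.99% with MS1943. For EEPD1-204, ARHGAP45-205, CAMTA2-206 and CUX1-209, MS1943 shares above both DMSO shares were a condition of the selection. Each call in these 4 genes was lost without at least 3 of the libraries in turn.

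IGF2BP3-212, of a gene for an mRNA-binding protein, held 4.70% and 0% of the gene with DMSO and 26.1% and 30.2% with MS1943, where 3 reads would have been 1.27% in DMSO replicate 2. The gene's level rose at the same time (log2 fold change 1.01 ± 0.06). Its call was lost without MS1943 replicate 1 (edgeR adjusted p = 0.123) or replicate 2 (0.218). GRB2-207, of the adaptor that links receptor tyrosine kinases to Ras, held 0% and 0.580% of the gene with DMSO and 8.28% and 21.1% with MS1943, with the MS1943 libraries far apart from each other (3 reads would have been 0.219% in DMSO replicate 1). Its call held without DMSO replicate 2 and was lost without DMSO replicate 1 (edgeR adjusted p = 0.0569), MS1943 replicate 1 (0.0648) or MS1943 replicate 2 (0.438).

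In GTF2H3, a subunit gene of the transcription factor TFIIH, a rise in 1 member stood beside a lower share of another that was not called. GTF2H3-204 held 7.5e-06% and 0% of the gene with DMSO and 25.2% and 26.5% with MS1943, and GTF2H3-203, also typed as retained intron, held 29.4% and 25.9% of the gene with DMSO and 0% and 3.94% with MS1943 (edgeR adjusted p = 0.0597). The call of GTF2H3-204 was lost without DMSO replicate 1 (adjusted p = 0.0667) or replicate 2 (0.0576). All retained-intron transcripts of GTF2H3 together held 32.5% and 28.6% with DMSO and 30.7% and 35.6% with MS1943, so the groups overlapped. In the DMSO libraries 3 reads would have been 0.772% and 0.789% of the gene. Only 1.41% of the bases of GTF2H3-204 are its own.

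**Figure D4:**
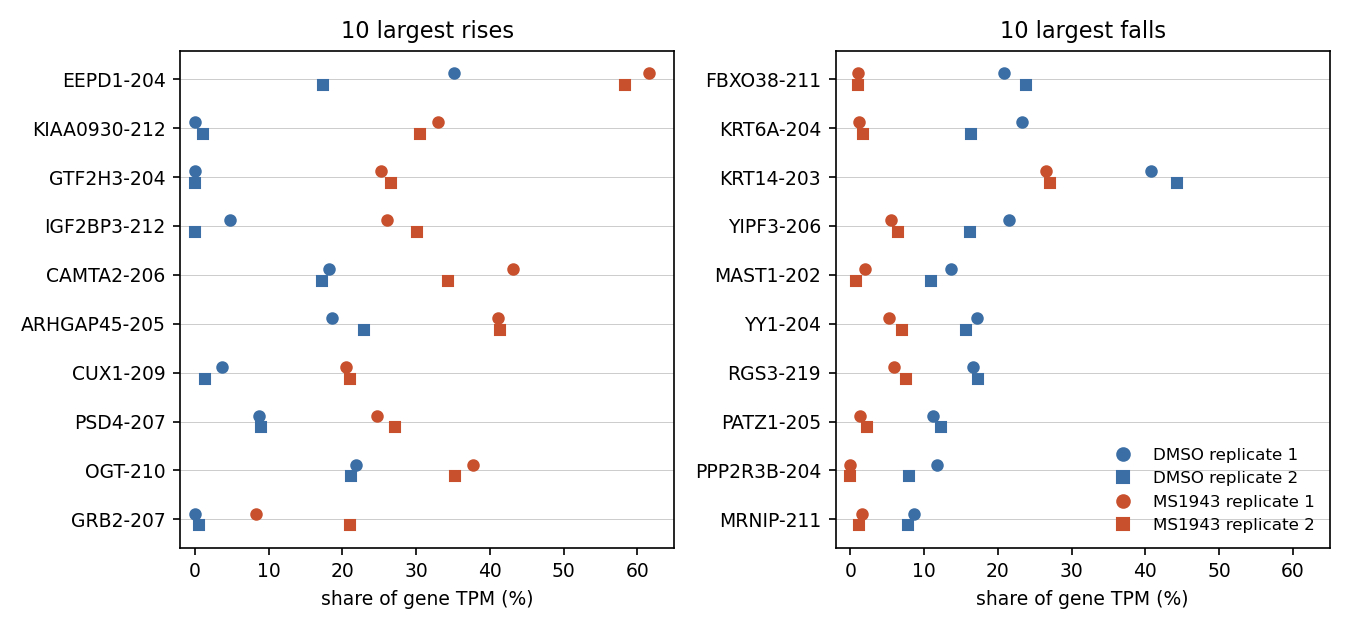
Share of gene TPM (x axis) in each library for the 10 members with the largest called rises (left) and the 10 with the largest called falls (right), in genes with a mean of at least 5 TPM. In every row shown the 2 MS1943 libraries lie on 1 side of the 2 DMSO libraries, a condition of the selection.

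The falls were led by FBXO38-211, of an F-box gene of a ubiquitin ligase, whose 3′ end lies in an intron. It held 20.8% and 23.9% of the gene with DMSO and 1.07% and 1.09% with MS1943 (edgeR adjusted p = 0.0115), and the retained-intron transcripts of FBXO38 together fell from 33.4% and 33.2% to 12.5% and 12.5%. Of the bases of FBXO38-211, 6.98% are its own. Without each library in turn the adjusted p was 0.0528 to 0.0975.

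Of the falling members, 2 belonged to keratin genes of the basal epithelium and moved in different ways. KRT14-203 held 40.8% and 44.3% of the gene with DMSO and 26.6% and 27.1% with MS1943, and its abundance fell from 99.998 and 109 TPM with DMSO to 62.2 and 59.9 TPM with MS1943, by 0.71 on the log2 scale. KRT6A-204 held 23.3% and 16.3% of the gene with DMSO and 1.20% and 1.70% with MS1943, but its own abundance, which went from 0.528 and 0.621 TPM with DMSO to 1.004 and 1.22 TPM with MS1943, was not called different (log2 fold change 0.97 ± 0.46, edgeR adjusted p = 0.254). In summed reads the KRT6A gene rose by 6.48 ± 0.12 on the log2 scale. Its TPM, a different measure that divides by transcript length, went from 2.27 and 3.80 with DMSO to 83.6 and 71.7 with MS1943. The coding transcript KRT6A-201 held most of the TPM with MS1943 (94.4% and 85.7%). The share of all retained-intron transcripts of KRT6A together moved by -67.05 points. With DMSO the gene was so low that 3 reads made 5.92% and 3.24% of it. MX1-212, of the interferon-induced antiviral GTPase, showed the same: its share went from 2.77% and 4.18% to 0.432% and 0.435% while its level was not called and the gene rose by 2.71 ± 0.06. The calls of all 3 members were lost without any 1 of the 4 libraries, with adjusted p of 0.0721 to 0.189 for KRT14-203, 0.101 to 0.127 for KRT6A-204 and 0.101 to 0.345 for MX1-212.

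PATZ1-205, of a zinc finger transcription factor gene, held 11.1% and 12.3% of the gene with DMSO and 1.35% and 2.31% with MS1943, and its call held without each library in turn (adjusted p 0.0058 to 0.0457). The PATZ1 gene fell as well, by 0.34 on the log2 scale. YY1-204, of the transcription factor YY1, held 17.1% and 15.7% of the gene with DMSO and 5.18% and 7.06% with MS1943. YY1-204 has no base of its own. RGS3-219, of a regulator of G protein signalling, held 16.7% and 17.3% of the gene with DMSO and 5.93% and 7.53% with MS1943, and the coding transcript RGS3-205 was called higher, at 18.4% and 21.6% against 9.01% and 7.12%. All retained-intron transcripts of RGS3 together moved by only -3.44 points, and 2.59% of the bases of RGS3-219 are its own. MAST1-202, of a microtubule-associated kinase gene, held 13.7% and 10.9% of the gene with DMSO and 2.01% and 0.728% with MS1943 in a gene that rose by 1.58 ± 0.06. The calls of YY1-204 and RGS3-219 were lost without any 1 of the libraries (adjusted p 0.101 to 0.341 and 0.116 to 0.643), and that of MAST1-202 held only without DMSO replicate 2 (0.0237).

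YIPF3-206, of a Golgi membrane protein gene, held 21.5% and 16.3% of the gene with DMSO and 5.51% and 6.39% with MS1943, and the gene's nonsense-mediated decay transcript YIPF3-203 was called higher (5.90% and 7.33% against 16.6% and 17.3%). MRNIP-211, of a protein that binds the MRN DNA repair complex, held 8.58% and 7.85% of the gene with DMSO and 1.60% and 1.14% with MS1943, and again a nonsense-mediated decay transcript, MRNIP-219, was called higher. MRNIP-211 has no base of its own. PPP2R3B-204, of a regulatory subunit gene of protein phosphatase 2A, held 11.7% and 8.01% of the gene with DMSO and 0% and 0% with MS1943. With MS1943 a count of 3 reads would have been 2.22% and 2.85% of the gene, so shares up to these values cannot be told from 0. It keeps the 67-base intron shown above. The call of YIPF3-206 held only without DMSO replicate 2 (adjusted p = 0.0161), and those of MRNIP-211 and PPP2R3B-204 were lost without any 1 of the libraries (0.112 to 0.202 and 0.139 to 0.379).

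Many of the called members were near or at 0 in 1 group. 19 of the 64 rising members had TPM 0 in both DMSO libraries, and 11 of the 27 falling members had TPM 0 in both MS1943 libraries. The TPM rule bears on this: 29 of the 64 and 15 of the 27 reached 0.5 TPM in 1 group only. HYOU1-222, of a chaperone gene of the endoplasmic reticulum, held 0% and 0% of the gene with DMSO and 4.04% and 4.29% with MS1943, where 3 reads would have been 0.149% and 0.129% in the DMSO libraries. INO80-204, of a chromatin-remodelling ATPase gene, held 0% and 0% of the gene with DMSO and 7.54% and 10.8% with MS1943, where 3 reads would have been 0.899% and 0.814%. ARHGAP32-205, of a GTPase-activating protein gene, held 4.58% and 4.004% of the gene with DMSO and 0% and 0% with MS1943, and 3 reads would have been 0.0183% and 0.0291% with MS1943. ARHGAP32-205 has no base of its own, and how far its fall depends on the division of reads between overlapping transcripts was not tested. These 3 were singled out after their values were seen, as members whose call held without each library in turn.

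There were 12 such members in all, 10 higher and 2 lower, and the rest were mostly small shares. Besides KIAA0930-212, HYOU1-222 and INO80-204, the higher ones included DMKN-250, PFDN5-215, HDLBP-245, RPS27-204, DMAC2-213 and EIF3F-202. The lower ones were PATZ1-205 and ARHGAP32-205. RPS27-204, of a small ribosomal subunit protein gene, held 1.63% and 1.73% of the gene with DMSO and 5.83% and 5.82% with MS1943, with closely matching replicates. EIF3F-202, of a subunit of translation initiation factor 3, held 2.95% and 3.73% of the gene with DMSO and 13.9% and 14.1% with MS1943. Of the bases of EIF3F-202, 16.2% were its own. Both groups were far apart relative to their replicates in these 2 members.

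A share can move because the member moved or because the rest of its gene did. In edgeR's quasi-likelihood test of transcript levels over 74941 transcripts, 8648 members were tested, 326 were higher (3.77%) and 151 lower (1.75%), where 6.23% and 6.21% of all transcripts were called. Of the 64 members with a higher share, 46 also had a higher level and 0 a lower one. Of the 27 with a lower share, 16 had a lower level and 0 a higher one. The level counts were far smaller without any 1 library: 37 to 90 higher and 12 to 23 lower.

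The host genes moved often and in both directions. Of the 4512 host genes tested, 1767 were higher (39.2%) and 1564 lower (34.7%), where 30% and 29.4% of all 19358 tested genes were called. By the TPM rule each host has a transcript of at least 0.5 TPM, which other genes need not have. These percentages therefore do not compare like sets. With libraries scaled to total reads in place of TMM the counts were 1368 higher and 1988 lower. In bulk RNA, fewer cells of a kind and less RNA per cell cannot be told apart. The hosts of the 64 members with a higher share were higher in 34 cases, lower in 19 and not called in 11. The hosts of the 27 with a lower share were higher in 13, lower in 11 and not called in 3. Gene tests use summed reads, while shares use TPM, and the 2 can differ because TPM divides by transcript length: the TPM of EEPD1 went from 5.29 and 4.81 to 19.7 and 19.3, while its reads rose by 0.68 ± 0.08 on the log2 scale.

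**Figure D5:**
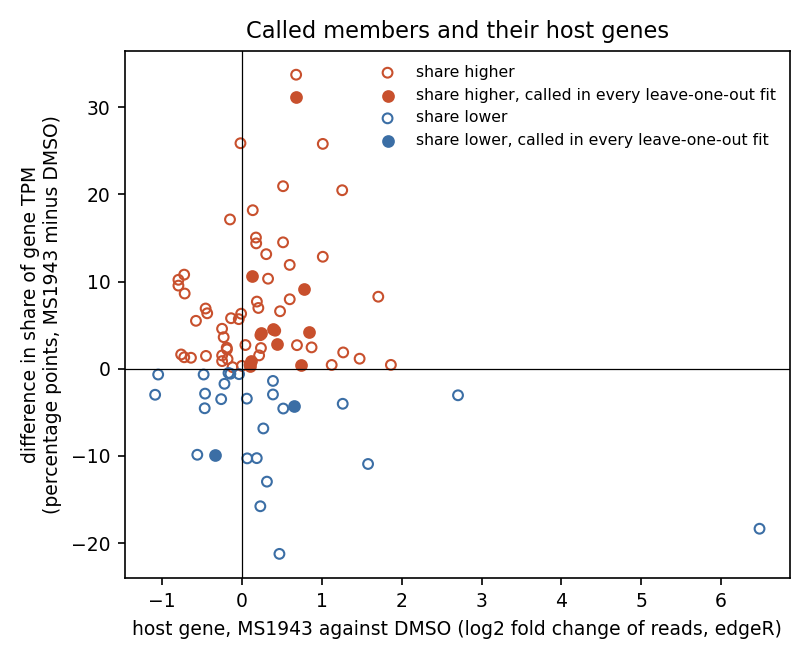
Difference in share (y axis, percentage points, MS1943 minus DMSO) against the log2 fold change of the host gene (x axis, edgeR on reads) for the 91 called members. Filled points are the 12 members called in every fit that left out 1 library, and KRT6A lies far to the right at 6.48.

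The shares of a gene's transcripts sum to a fixed total, so a higher share of one goes with a lower share elsewhere in the gene. For 52 of the 64 members with a higher share, the transcript of the same gene whose share moved furthest the other way was protein coding. For 6 it was a nonsense-mediated decay transcript, for 2 a processed transcript and for 4 another retained-intron transcript. That partner was itself called lower in 2 cases and was not called in the rest. For the 27 with a lower share, the partner was protein coding in 18 and was called higher in 5. Protein-coding transcripts held a mean of 82.6% of library TPM with DMSO and 81.1% with MS1943. No such count of partners was made over all members, so nothing is read from the partner types.

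SR protein genes, classic hosts of regulated introns, had 26 members, and 0 of the 25 tested were called by edgeR. Both MS1943 shares lay above DMSO for 14 of the 26 (53.8%) and below for 5 (19.2%), where all transcripts had 25.1% and 22.9% and all members 30.9% and 16.8%. Since DMSO replicate 1 most often had the lowest share, the counts of each list are also given without it: 18 of the 26 (69.2%) then lay above and 6 below, where all transcripts had 36.6% and 35.3%. Of the 14 SR genes, 7 fell and 2 rose. SRSF2 fell from 327 and 329 to 185 and 212 CPM, with a log2 fold change of -0.73 ± 0.06 (SE), SRSF1 by 0.66 and SRSF7 by 0.62. In SRSF3, which regulates its own RNA through a poison exon, SRSF3-207 held 5.84% and 5.81% of the gene with DMSO and 8.09% and 8.69% with MS1943 and SRSF3-206 held 6.26% and 7.78% of the gene with DMSO and 4.33% and 1.98% with MS1943, the first above DMSO and the second below, with neither called (edgeR adjusted p = 0.134 and 0.219). The nonsense-mediated decay transcript SRSF3-203 was called higher (21.7% and 21.1% with DMSO, 38.7% and 36.1% with MS1943), and so was SRSF2-208 (12.9% and 14.9%, then 24.7% and 30.6%). SRSF5-212, which keeps intron 5 of 5 of SRSF5-202, held 7.71% and 7.58% of the gene with DMSO and 9.73% and 9.24% with MS1943, and SRSF1-202 held 0% and 1.80% of the gene with DMSO and 3.98% and 4.96% with MS1943, with DMSO replicate 1 at 0 (3 reads would have been 0.0537%). Neither was called.

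The kinase genes CLK1 and CLK4 carry the introns 4 with identical donor windows shown above. CLK1-210, with introns 3 and 4, held 13.3% and 16.5% of the gene with DMSO and 20.4% and 19.6% with MS1943. Its abundance rose from 3.32 and 4.02 TPM with DMSO to 6.38 and 6.37 TPM with MS1943 (log2 fold change 0.86 ± 0.12, edgeR adjusted p = 0.0226), as did the whole gene (0.68 ± 0.06), and the share was not called (adjusted p = 1). CLK4-203 held 9.73% and 8.84% of the gene with DMSO and 11.2% and 12.8% with MS1943, and CLK4-205, which ends inside an intron, held 7.26% and 7.66% of the gene with DMSO and 14.9% and 14.8% with MS1943. All retained-intron transcripts together held 40.7% and 35.1% of CLK1 with DMSO against 36.2% and 38.4% with MS1943, which overlap, and 23.7% and 24.9% of CLK4 against 31.0% and 33.4%, which do not. CLK3, whose gene rose by 0.72 ± 0.06, kept 8.40% and 9.28% against 7.56% and 8.37%. None of the 16 tested members of the 8 splicing kinase genes was called by edgeR, and 5 of 17 lay above DMSO (29.4%) and 1 below, or 6 (35.3%) and 5 (29.4%) without DMSO replicate 1. The parts above DMSO were near those of all members (30.9%) and all transcripts (25.1%, or 36.6% without DMSO replicate 1). Below DMSO, all transcripts had 22.9%, or 35.3% without DMSO replicate 1.

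Most hnRNP genes were lower at gene level, and 4 of their members were called. Of 22 hnRNP genes, 21 fell and 0 rose, by a median of 0.43 on the log2 scale, against a median near 0 (-0.01) over all tested genes. HNRNPA1 fell from 869 and 822 to 480.4 and 456 CPM (-0.85 ± 0.06, SE), HNRNPR by 0.82 and HNRNPC by 0.76. Of their 48 members, 45 were tested, 3 shares were higher and 1 lower. Both MS1943 shares lay above DMSO for 26 (54.2%) and below for 4, or for 29 (60.4%) and 9 without DMSO replicate 1. All transcripts had 25.1% above and 22.9% below, or 36.6% and 35.3% without DMSO replicate 1.

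PTBP1-216, of the splicing repressor gene PTBP1, keeps the 83-base intron shown above and held 1.41% and 1.71% of the gene with DMSO and 7.89% and 7.96% with MS1943 (edgeR adjusted p = 0.0065). Its abundance rose from 5.18 and 6.79 TPM with DMSO to 18.7 and 20.003 TPM with MS1943 while the gene fell by 0.44 on the log2 scale, and the retained-intron transcripts of PTBP1 together went from 2.70% and 2.95% to 10.3% and 9.98%. The call held without DMSO replicate 2 (adjusted p = 0.0460) and was lost without each of the other libraries (0.104 to 0.128). HNRNPL-203 (0.565% and 0.600% of the gene with DMSO and 1.72% and 1.98% with MS1943) and HNRNPC-215 (0.559% and 0.554% of the gene with DMSO and 2.32% and 2.08% with MS1943) were also higher; these 2 were named because the count is small, after their values were seen. HNRNPH1-234 was lower, at 0.295% and 0.676% of the gene with DMSO and 0% and 0% with MS1943, where 3 reads would have been 0.0491% and 0.0745%. HNRNPC-215 has no base of its own. The call of HNRNPL-203 held only without MS1943 replicate 1 (adjusted p = 0.0215), that of HNRNPC-215 was lost without any 1 library (0.136 to 0.304), and that of HNRNPH1-234 was lost without DMSO replicate 2 (0.0600) or MS1943 replicate 1 (0.0678).

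The other splicing lists were mixed. Of 22 genes of the U1 and U2 snRNPs and splice-site recognition, 7 rose and 7 fell, with SF3B3 lower by 0.81 on the log2 scale. Their 45 tested members gave 1 call, SF3B1-209, of the branch-site recognition subunit, which held 0% and 0% of the gene with DMSO and 1.01% and 1.22% with MS1943, where 3 reads would have been 0.120% and 0.104% in the DMSO libraries. The call held only without DMSO replicate 2 (adjusted p = 0.0446). Of 23 genes of the U4/U6.U5 snRNP and the catalytic steps, 7 rose and 8 fell, of 15 Sm protein and Sm methylation genes 2 rose and 7 fell, and of 9 minor spliceosome genes 3 rose and 3 fell. In the minor spliceosome, ZRSR2 rose from 6.73 and 6.77 to 18.6 and 18.7 CPM and SNRNP25 fell from 27.2 and 27.2 to 12.4 and 13.5 CPM. These 3 lists had 28, 6 and 3 tested members, and edgeR called 0 of them.

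Genes that remove such RNAs were measured too. Of 8 genes of nuclear RNA decay and retention, 4 rose and 1 fell, with ZCCHC8 up by 0.50 ± 0.06 (log2, SE), EXOSC10 by 0.34 and MTREX by 0.33. Of 15 genes of nonsense-mediated decay and the exon junction, 3 rose and 4 fell, SMG1 rising by 0.42 and UPF1 falling by 0.34 on the log2 scale. Their 6 and 20 tested members gave 0 calls by edgeR. Transcripts typed as nonsense-mediated decay held 3.53% and 3.60% of library TPM with DMSO and 3.93% and 4.06% with MS1943, which do not overlap, with p = 0.333 in the exact permutation test.

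Of 18 lists of host genes, 12 had no called member, where 1.71% of all transcripts and 1.06% of members were called in either direction. At these rates a list of this size has few called members or none, and nothing is read from such counts. The 31 proteasome genes, all higher, had 66 tested members and 1 call: PSMB4-207, at 0.0770% and 0% of the gene with DMSO and 0.276% and 0.677% with MS1943, where 3 reads would have been 0.0257% in DMSO replicate 2. That call held only without DMSO replicate 1 (adjusted p = 0.0074). Both MS1943 shares lay above DMSO in 32 of 71 proteasome members (45.1%) and below in 3, or in 35 (49.3%) and 24 (33.8%) without DMSO replicate 1. The 25 heat shock genes, 24 of them higher, had 35 tested members and 0 calls, with 23 of 36 above DMSO (63.9%) and 4 below, or 24 (66.7%) and 8 without DMSO replicate 1. Beside both lists, all transcripts had 25.1% above and 22.9% below, or 36.6% and 35.3% without DMSO replicate 1. The 20 aminoacyl-tRNA synthetase genes, 18 of them higher, gave 1 call among 45, WARS-237 of the tryptophanyl-tRNA synthetase gene, which held 0.490% and 1.79% of the gene with DMSO and 9.06% and 9.76% with MS1943, a call lost without DMSO replicate 1 (adjusted p = 0.270).

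Of 34 interferon-stimulated genes, 33 could be matched and 32 rose, and their 15 tested members gave only MX1-212. Of 41 S-phase genes, 35 fell and 2 rose, and the 43 tested members gave 1 call, POLD2-217 of the DNA polymerase delta subunit, at 0.724% and 0.593% of the gene with DMSO and 0% and 4.9e-07% with MS1943, where 3 reads would have been 0.0864% and 0.132% with MS1943, a call lost without any 1 library (adjusted p 0.0562 to 0.415). The 40 G2 and mitosis genes, 39 of them lower, had 30 tested members and 0 calls. Lists of ATF4 and CHOP targets and of autophagy and lysosome genes had 31 and 37 tested members, and edgeR called 0. In all of these lists the median difference in share was between -0.53 and 0.40 points, against 0.15 over all members.

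The targeted gene and its paralog were read in the same way. EZH2-204 has both ends inside introns and held 3.10% and 2.65% of the gene with DMSO and 1.33% and 2.66% with MS1943, so the groups overlapped, and the share was not called (edgeR adjusted p = 1). The EZH2 gene fell by 0.19 on the log2 scale. EZH1-210, at 15.5% and 9.90% of the gene with DMSO and 18.4% and 14.6% with MS1943, and EZH1-208, at 4.28% and 9.13% of the gene with DMSO and 6.71% and 4.95% with MS1943, overlapped between the groups as well, while the EZH1 gene rose by 0.88 ± 0.07. All retained-intron transcripts of EZH1 held 31.6% and 31.9% with DMSO and 32.7% and 29.98% with MS1943. Of 13 tested members of PRC2 genes, edgeR called 0.

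The most abundant members were in genes of translation and the nucleolus, and 0 of the 3 highest were called by edgeR. EEF1A1-206, of elongation factor 1 alpha, keeps 2 whole introns and went from 1478 and 1481 TPM with DMSO to 2789 and 1439 TPM with MS1943. MS1943 replicate 1 was far above the rest, and the other MS1943 library lay below DMSO. Its share was 16.01% and 17.2% of the gene with DMSO and 24.1% and 15.1% with MS1943. NPM1-210, of the nucleolar protein nucleophosmin, held 29.7% and 35.3% of the gene with DMSO and 30.1% and 32.8% with MS1943, and RPS23-203, of a small ribosomal subunit protein, held 51.2% and 39.9% of the gene with DMSO and 40.3% and 41.5% with MS1943. The groups overlapped in all 3.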

How the data were processed

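RNA from 4 MDA-MB-468 libraries was quantified by the authors with Salmon 0.9.1 on hg38, per the submitters' processing notes, which also name R 3.4.3 and DESeq2; which annotation release and which Salmon settings they used is not given in the sources used here. Per the file headers, the deposited files hold estimated counts and TPM for 197653 transcripts. TPM were used as deposited, and estimated counts were rounded for the tests. Transcript types, genes and sequences came from GENCODE 29, matched by identifier without version. The 4305 unmatched transcripts held 0.482 to 0.496% of reads and were left out.

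A member's share was tested with edgeR 4.0.16 (R 4.3.3): TMM scaling, low counts filtered, quasi-likelihood fit, and each transcript set against the rest of its gene, in genes with at least 2 transcripts. Levels of transcripts and genes were tested with edgeR's quasi-likelihood test. All p-values were Benjamini-Hochberg adjusted over all tested features, with a threshold of 0.05. Library totals were compared by exact two-sided permutation. A value of 0 is given with what 3 reads would make, which covers counting error only. On simulated data with the measured spread, the share test found 0 of 67 transcripts at a true 1.5-fold difference, 4 of 67 at 2-fold and 21 of 66 at 4-fold. These were drawn from retained-intron transcripts above a minimum mean CPM. In a run where no transcript differed, the share test called 139 of 63864 transcripts, 7 of them among 8196 members.

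Members, gene lists and tests were chosen with earlier results of these data known. Named are the 10 largest called rises and falls in genes of at least 5 TPM (effective length at least 100, MS1943 shares outside the DMSO range, 1 per gene), the 3 most abundant members, up to 2 called members per gene list by adjusted p, the members of the CLK, EZH and SRSF1 to SRSF7 genes, and up to 3 splicing and decay genes per list; others are said to be chosen after their values were seen, and a few items are not reported here. limma 3.58.1, DESeq2 1.42.0, other filters and leaving out each library were the alternatives.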

Additional observations from a re-analysis of the deposited data

How the results depend on the processing

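The share calls depended on the processing. The 64 higher members became 39 without a filter on low counts, 0 with limma at a pseudocount of 0.1, 27 with limma at a pseudocount of 1, 35 with 0.5 TPM required in each group, 32 with a minimum of 5 percentage points, and 25 to 50 without each library in turn. The 27 lower members became 14, 0, 18, 12, 10 and 11 to 22 under the same settings, and 17 with a mean of at least 1 TPM. RLE size factors kept all 91 calls. Members with a higher level (326) numbered 37 to 90 without each library in turn, and members with a lower level (151) 12 to 23. The counts of members above DMSO (2912) and below it (1582) became 3752 to 4651 and 2388 to 3027 without each library in turn, where fewer libraries make overlap rarer; this alternative, and the same for the gene lists, was chosen after seeing the data. The host gene counts stayed within 1.5 times under every alternative run. Of the 40 called members that the text names, 13 of them outside the naming rule and chosen after their values were seen, 22 to 26 lost the call without a given library, 13 without the filter, 22 and 40 with limma at pseudocounts of 1 and 0.1, and 0 with RLE, and 0 changed direction. The cause was not tested, beyond fewer libraries leaving less to estimate spread from. No paired analysis was possible because the labels carry no replicate numbers, and those used here only name the libraries in order of deposit.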

Other observations

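Ribosomal protein genes were not among the lists and were looked at after their called members had been seen, so their values are given as a description. They held 160 members in 61 genes, of which 151 were tested. edgeR called 6 shares higher, in 5 genes, and 0 lower. That is 3.97% of those tested, against 0.910% of all transcripts called higher. The median difference over the 160 members was only 0.03 percentage points, with both MS1943 shares above DMSO in 71 (44.4%) and below in 10, against 25.1% and 22.9% of all transcripts, or in 83 (51.9%) and 33 (20.6%) without DMSO replicate 1, against 36.6% and 35.3%. In RPS27 the called member RPS27-204 went from 37.9 and 35.5 TPM with DMSO to 119.7 and 134 TPM with MS1943.

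A keratin member moved the other way from KRT14-203 and KRT6A-204: KRT5-210, of the basal keratin gene KRT5, held 0.506% and 0.441% of the gene with DMSO and 0.915% and 0.926% with MS1943 and was called higher by edgeR, a call lost without any 1 library (adjusted p 0.0665 to 0.378). It was noticed after its values were seen.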
